A study of Rattus norvegicus with 24 samples.

Results

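Of 32883 genes counted in rat lung, 3 were called lower after monocrotaline at every time point examined: Hpgd, Tmcc2 and a gene that the sources used here list only by its identifier, ENSRNOG00000047457. They are the genes that passed an adjusted p of 0.05 and a fold change of 1.5 in the lower direction in each of Weeks 1, 2 and 3, among 15377 genes tested in all weeks. Because the differences between treated and control lungs chose these genes, those differences are given below as a description and without a test. The tests concern how the levels differed between weeks, on which the rule set no condition, although the same libraries enter both.

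Monocrotaline (MCT) is a pyrrolizidine alkaloid, toxic to pulmonary endothelial cells once the liver has activated it, that is used to induce pulmonary hypertension in rats. Male wild-type Sprague Dawley rats received MCT at 50 mg per kg or PBS buffer, both by intraperitoneal injection, and poly-A RNA of perfused lung tissue was sequenced from 1 rat per library. The MCT Week 1, MCT Week 2 and MCT Week 3 groups were collected at days 7, 14 and 21, and the PBS Week 1, PBS Week 2 and PBS Week 3 groups at the same days, with 4 rats in each of the 6 groups. A library of whole lung mixes all cell types, so fewer cells of a type and less RNA per cell cannot be told apart in any value below. Markers of alveolar type 2 cells, which make surfactant, were present in every library, with a summed level of 6557 to 13828 reads per 1e6 counted reads (CPM) over 4 genes.

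Total counts lay between 19804731 and 32835200 per library. PBS Week 1 replicates 1 and 3 stood apart, with 19804731 and 20509197 counts against at least 28357609 in the other 22 libraries. They had 14706 and 12491 genes with at least 10 counts, against 15614 to 16428 in the others. The Week 1 shares and log2 differences of the 3 genes, and the Week 1 marker values, are therefore given with and without these libraries.

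Hpgd encodes 15-hydroxyprostaglandin dehydrogenase, the enzyme that begins the inactivation of prostaglandin E2 and related prostaglandins. The lung is a main site of this clearance: the transporter Slco2a1 carries prostaglandins into the cell, and Hpgd oxidises them there. Tmcc2 encodes a membrane protein with coiled-coil domains that resides in the endoplasmic reticulum, and its human counterpart binds apolipoprotein E. No role is given here for ENSRNOG00000047457.

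In the Rnor_6.0 coordinates of the counts table, Hpgd lies on chromosome 16 from 37457135 to 37495758 on the minus strand, with 7 exon stretches and 1678 counted bases. Tmcc2 lies on chromosome 13 from 49132667 to 49169918, also on the minus strand, with 5 exon stretches and 3681 bases. ENSRNOG00000047457 lies on chromosome 8 from 130283542 to 130309980 on the plus strand, with 17 exon stretches and 1380 bases. No other row of the table overlapped any of them.

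Promoters were found for 2 of the 3 genes in the RefSeq annotation of the GRCr8 assembly, and both are shown because the genes moved in one direction in every week. Each covers 250 bases before to 50 bases after the annotated start, on the minus strand at chr16:39034782-39035081 for Hpgd and chr13:46383813-46384112 for Tmcc2, written 5′ to 3′. Capitals mark GC boxes (GGGCGG, or CCGCCC where the box is on the other strand) and E-boxes (CACGTG, the same on both strands).
Hpgd: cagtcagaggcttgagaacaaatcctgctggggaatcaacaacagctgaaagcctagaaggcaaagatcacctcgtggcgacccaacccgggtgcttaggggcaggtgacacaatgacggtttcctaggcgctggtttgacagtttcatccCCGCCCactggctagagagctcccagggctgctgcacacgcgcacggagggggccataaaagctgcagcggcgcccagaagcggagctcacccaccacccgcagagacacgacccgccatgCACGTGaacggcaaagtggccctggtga
Tmcc2: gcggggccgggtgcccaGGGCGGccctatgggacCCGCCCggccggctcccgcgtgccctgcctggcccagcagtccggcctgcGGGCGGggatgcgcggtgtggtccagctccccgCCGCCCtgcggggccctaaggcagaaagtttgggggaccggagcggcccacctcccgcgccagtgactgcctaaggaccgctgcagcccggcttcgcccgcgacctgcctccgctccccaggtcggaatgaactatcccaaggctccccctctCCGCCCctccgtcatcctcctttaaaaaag
The Hpgd promoter held 1 GC box, at -99 from the start, and 1 E-box, at 23 bases into the transcript. The E-box directly follows the letters atg, and whether it lies in coding sequence was not examined. The Tmcc2 promoter held 5 GC boxes, at -233, -216, -166, -133 and 21, and no E-box. Of 33469 rat promoters of this length, 33.1% held a GC box and 6.42% an E-box. None of the marked motifs overlapped another. The GC content was 60.7% for Hpgd and 73% for Tmcc2, which places them at percentiles 75.3 and 95.1 of these promoters. Searched on both strands and found in neither window were a TATA box (TATAAA, held by 14.2% of promoters), a CCAAT box (37.5%), a GATA motif (AGATAA, held by 11.6%), an ETS motif (CCGGAAGT, held by 3.81%), a cAMP response element (TGACGTCA, held by 1.83%) and an NF-kB motif (0.111%).

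Hpgd had the smallest share of its PBS level in Week 3 among the 3 genes, and its share was larger in Weeks 1 and 2. In Week 1 its level was 18.3, 24.03, 24.2 and 20.1 CPM in the lungs of the 4 MCT rats, against 119, 72.1, 78.9 and 75.0 CPM in the PBS rats, after scaling of the libraries by the trimmed mean of M-values (TMM). All MCT rats lay below all PBS rats, as was the case for 1.62% of 17206 genes in that week. The lowest PBS rat had 2.97 times the level of the highest MCT rat. The means were 21.7 ± 2.95 and 86.3 ± 22.1 CPM (SD, n = 4 each), so the MCT lungs held 25.1% of the PBS level, or 29.5% without the PBS replicates 1 and 3.

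In Week 2 Hpgd stood at 10.8, 10.9, 25.2 and 19.1 CPM in MCT rats, against 89.0, 89.0, 72.9 and 82.9 CPM in PBS rats. The MCT rats of this week fell into a lower and a higher pair, the widest relative spread of Hpgd in any group (42.4% of the mean). Their mean of 16.5 ± 6.99 CPM was 5.05-fold below the PBS mean of 83.4 ± 7.62 CPM (SD, n = 4 each). In Week 3 the levels were 9.61, 5.77, 10.1 and 11.2 CPM in MCT rats, against 120.2, 153, 157 and 109 CPM in PBS rats. Here the groups were farthest apart: the lowest PBS rat had 9.77 times the level of the highest MCT rat, and the MCT mean of 9.17 ± 2.36 CPM was 6.81% of the PBS mean of 134.7 ± 23.4 CPM (SD, n = 4 each).

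Tmcc2 showed a deficit of about the same proportion each week. In Week 1 the MCT rats had 90.3, 94.4, 68.2 and 84.1 CPM, against 269.6, 332, 225 and 228 CPM in PBS rats. The means of 84.2 ± 11.5 and 263.8 ± 50.0 CPM (SD, n = 4 each) put MCT lungs at 31.9% of PBS lungs, or 30.04% without the PBS replicates 1 and 3. In Week 2 the levels were 55.4, 61.7, 66.6 and 70.8 CPM in MCT rats, against 174, 243, 272 and 179 CPM in PBS rats. Every MCT rat again lay below every PBS rat, as for 9.86% of 17206 genes in that week. The MCT mean of 63.6 ± 6.61 CPM was 29.3% of the PBS mean of 217.1 ± 48.3 CPM (SD, n = 4 each).

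In Week 3 the rats of each group were close to one another, at 45.8, 45.4, 47.2 and 47.7 CPM in MCT lungs, against 164, 150.3, 160.0 and 159 CPM in PBS lungs. The SD was 2.28% of the mean in MCT rats and 3.65% in PBS rats, the narrowest spread of any of the 3 genes. With means of 46.5 ± 1.06 and 158.5 ± 5.79 CPM (SD, n = 4 each), MCT lungs held 29.4% of the PBS level.

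ENSRNOG00000047457 had the lowest share of the PBS level in Weeks 1 and 2. In Week 1 it stood at 13.8, 28.1, 11.6 and 16.4 CPM in MCT rats, against 83.2, 86.4, 105 and 144 CPM in PBS rats. The means were 17.5 ± 7.32 and 104.7 ± 28.1 CPM (SD, n = 4 each), so the MCT share was 16.7%, or 15.1% without the PBS replicates 1 and 3. MCT replicate 2 was the highest of its group, yet far below any PBS rat. In Week 2 the levels were 24.3, 27.4, 27.9 and 21.3 CPM in MCT rats, against 157, 148, 173 and 162 CPM in PBS rats, with an MCT mean of 25.2 ± 3.10 CPM at 15.8% of the PBS mean of 160.0 ± 10.5 CPM (SD, n = 4 each). In Week 3 they were 12.1, 17.9, 16.0 and 13.9 CPM in MCT rats, against 147, 123, 136 and 165 CPM in PBS rats. The means of 15.0 ± 2.51 and 142.6 ± 17.8 CPM (SD, n = 4 each) put the MCT share at 10.5%.

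**Figure D1:**
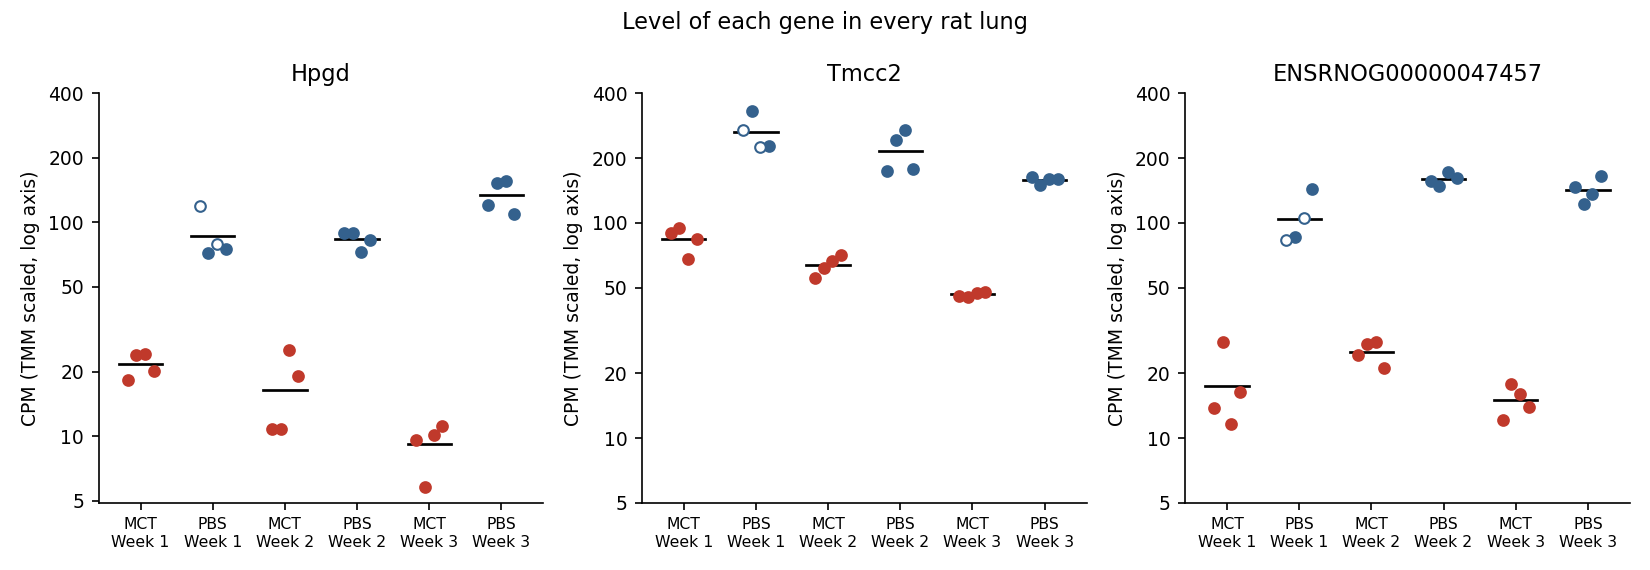
Level of Hpgd, Tmcc2 and ENSRNOG00000047457 in every rat, in TMM-scaled CPM on a log axis, for MCT (red) and PBS (blue) lungs in Weeks 1, 2 and 3. Each point is 1 rat, the bar is the mean of 4 rats, and open points are PBS Week 1 replicates 1 and 3. In each panel and week all MCT points lie below all PBS points.

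Divided by the counted length of each gene (RPKM, CPM per kilobase), ENSRNOG00000047457 had the highest mean of the 3 genes in PBS lungs in each week, at 75.9 ± 20.4, 116 ± 7.59 and 103 ± 12.9 RPKM in Weeks 1, 2 and 3 (SD, n = 4 each). Its Week 1 range overlapped that of Tmcc2, which averaged 71.7 ± 13.6 RPKM, also without PBS replicates 1 and 3. In Week 3 its range overlapped that of Hpgd, which averaged 80.3 ± 14.0 RPKM in PBS lungs. In MCT lungs Tmcc2 had the highest mean in Weeks 1 and 3, at 22.9 ± 3.13 and 12.6 ± 0.289 RPKM, and ENSRNOG00000047457 had 12.7 ± 5.30 and 10.9 ± 1.82 RPKM in those weeks (SD, n = 4 each). In Week 2 ENSRNOG00000047457 had the highest mean in MCT lungs, with 18.3 ± 2.25 RPKM against 17.3 ± 1.80 RPKM for Tmcc2. The ranges of ENSRNOG00000047457 and Tmcc2 in MCT lungs overlapped in each week. Hpgd averaged 12.9 ± 1.76, 9.84 ± 4.17 and 5.47 ± 1.41 RPKM in MCT lungs in Weeks 1, 2 and 3 (SD, n = 4 each).

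On the log2 scale the edgeR estimate for Hpgd, MCT over PBS, was -1.99 (SE 0.245) in Week 1, -2.34 (SE 0.244) in Week 2 and -3.89 (SE 0.218) in Week 3. For Tmcc2 it was -1.65 (SE 0.219), -1.77 (SE 0.151) and -1.78 (SE 0.0894) in the same weeks. For ENSRNOG00000047457 it was -2.58 (SE 0.350), -2.67 (SE 0.103) and -3.26 (SE 0.153). Ranked from the most lowered gene, Hpgd was number 205 of 15658 genes in Week 1, number 30 of 16108 in Week 2 and number 12 of 16138 in Week 3. Tmcc2 held ranks 346, 80 and 263, and ENSRNOG00000047457 ranks 76, 16 and 27.

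**Figure D2:**
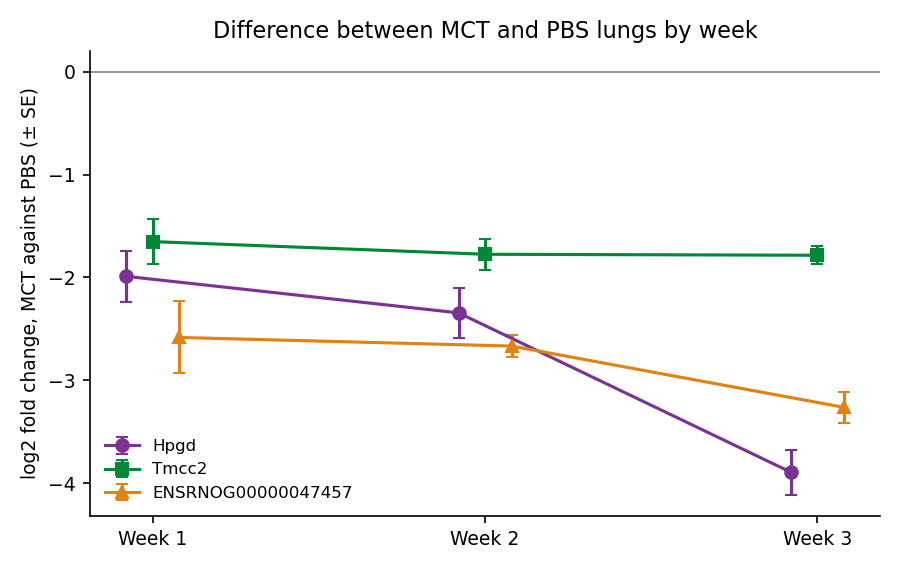
Difference between MCT and PBS lungs in each week as the edgeR log2 fold change (points) with its SE (bars) for Hpgd, Tmcc2 and ENSRNOG00000047457. Tmcc2 stays between -1.65 and -1.78, whereas Hpgd reaches -3.89 in Week 3.

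The rule was met narrowly in Week 1. The 3 genes were the whole set called lower in that week, 0.0192% of the genes tested, and they passed with adjusted p values of 0.0329 (Hpgd), 0.0426 (Tmcc2) and 0.0454 (ENSRNOG00000047457). In Weeks 2 and 3 the lower calls made up 3.43% and 11% of the genes tested, and 326 genes were lower in both. Of these, the nearest to the Week 1 threshold from outside were Glp1r, the receptor of glucagon-like peptide 1 (log2 fold change -2.10, adjusted p = 0.0522), Tmem100, a membrane protein of arterial endothelium (-1.54, adjusted p = 0.0617), and Sema3g, a secreted semaphorin (-1.70, adjusted p = 0.0670). Without PBS replicates 1 and 3, 84 genes were lower in Week 1 (0.507% of those tested), among them 58 of the 326 genes. Hpgd, Tmcc2 and ENSRNOG00000047457 passed with these libraries left out, at -1.76, -1.74 and -2.73. When any 1 MCT rat, PBS replicate 2 or PBS replicate 4 was left out, all 3 missed the Week 1 threshold in edgeR (adjusted p up to 0.294). Their Week 1 log2 values over all single omissions stayed between -2.93 and -1.54. Complete separation of all MCT rats below all PBS rats was seen for 1.62%, 9.86% and 14.6% of 17206 genes in Weeks 1, 2 and 3. It was seen in every week for 66 of these genes (0.384%).

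The comparison of weeks asked whether the deficits grew. Each week held different rats, collected on a different day. Time since injection therefore cannot be told apart from rat age or a batch of collection, above all within 1 treatment. In edgeR's quasi-likelihood test over 24 libraries with Benjamini-Hochberg adjustment, the log2 difference between MCT and PBS for Hpgd was lower by 1.88 in Week 3 than in Week 1 (estimate -1.88, SE 0.350, adjusted p = 0.00441). Lower calls of this kind covered 2.51% of the genes tested. Between Weeks 3 and 2 the estimate for Hpgd was -1.54 (SE 0.350, adjusted p = 0.0905) and missed the threshold, which it passed without PBS Week 1 replicates 1 and 3 (-1.53, adjusted p = 0.0119) and without replicate 3 alone (-1.54, adjusted p = 0.0303). Between Weeks 2 and 1 it was -0.34 (SE 0.347, adjusted p = 1.00), a comparison in which no gene of 17206 passed in either direction.

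The change of the Tmcc2 difference was -0.12 between Weeks 3 and 1 (95% interval -0.57 to 0.33, adjusted p = 0.799), 0.0021 between Weeks 3 and 2 (-0.45 to 0.46, adjusted p = 0.999) and -0.12 between Weeks 2 and 1 (-0.57 to 0.33). These intervals still allow the Tmcc2 deficit to have grown or shrunk. For ENSRNOG00000047457 the change was -0.67 between Weeks 3 and 1 (95% interval -1.31 to -0.02, adjusted p = 0.218) and -0.58 between Weeks 3 and 2 (-1.23 to 0.06, adjusted p = 0.533). Neither passed after adjustment.

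Separate comparisons within each treatment gave the differences between weeks on each side. In MCT rats Hpgd was lower in Week 3 than in Week 1 (log2 fold change -1.24, SE 0.206, adjusted p = 0.00179 in edgeR), a comparison in which 7.72% of genes were called lower. PBS rats gave 0.62 for the same weeks (95% interval 0.02 to 1.23, adjusted p = 0.907), a comparison in which no gene was called in either direction. The 4 MCT rats of Week 3 all lay below the 4 MCT rats of Week 1. For gaps of this kind between weeks, here and below, the share over all genes was not counted. Between Weeks 3 and 2 the MCT rats gave -0.84 for Hpgd (SE 0.295, adjusted p = 0.126), which did not pass. In PBS rats Hpgd was higher in Week 3 than in Week 2 (0.69, SE 0.134, adjusted p = 0.0216), where 2.64% of genes were called higher. That call was lost when PBS Week 2 replicate 2, 3 or 4 was left out (adjusted p = 0.0691, 0.0766 and 0.0679), and with all 24 libraries in 1 fit (adjusted p = 0.301). Ordered by mean, the Hpgd levels ran from PBS Week 3 through PBS Week 1, PBS Week 2, MCT Week 1 and MCT Week 2 to MCT Week 3. Ranges overlapped between PBS Weeks 3 and 1, between PBS Weeks 1 and 2, between MCT Weeks 1 and 2, and between MCT Weeks 2 and 3. The overlap of PBS Weeks 3 and 1 rested on PBS Week 1 replicate 1 alone, at 119 CPM. Without PBS Week 1 replicates 1 and 3, the PBS Week 1 mean was 73.5 CPM, below the 83.4 CPM of PBS Week 2.

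Tmcc2 was lower in Week 3 than in Week 1 in MCT rats (-0.85, SE 0.113, adjusted p = 0.000522 in edgeR). PBS rats gave a similar estimate for the same weeks (-0.75, 95% interval -1.26 to -0.25) that did not pass (adjusted p = 0.907). No gene of 15656 was called in that comparison of PBS rats, so the failure is not particular to Tmcc2. Between Weeks 3 and 2 its values were -0.44 in MCT rats (adjusted p = 0.0263, below the fold threshold) and -0.45 in PBS rats (adjusted p = 0.0641). The order of means was PBS Week 1, PBS Week 2, PBS Week 3, MCT Week 1, MCT Week 2 and MCT Week 3. The ranges of PBS Weeks 1 and 2 overlapped, as did those of MCT Weeks 1 and 2, while PBS Week 3 lay apart from both its neighbours and MCT Week 3 lay below MCT Week 2.

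ENSRNOG00000047457 was lower in Week 3 than in Week 2 in MCT rats (-0.74, SE 0.149, adjusted p = 0.0237 in edgeR), where 1.86% of genes were called lower. The call was lost without MCT Week 2 replicate 2 or 3 or MCT Week 3 replicate 4 (adjusted p = 0.0587, 0.0617 and 0.0803), and with all 24 libraries in 1 fit (adjusted p = 0.211). Its difference between Weeks 2 and 1 was 0.54 in MCT rats (adjusted p = 0.208), and 0.87 with a call (adjusted p = 0.0197) without MCT Week 1 replicate 2, the high rat of that group. In PBS rats the same weeks differed by 0.67 (95% interval 0.12 to 1.22, adjusted p = 0.999), a comparison in which no gene of 15784 was called. Its order of means was PBS Week 2, PBS Week 3, PBS Week 1, MCT Week 2, MCT Week 1 and MCT Week 3, and each pair of neighbours on the same side of the treatment overlapped.

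Among genes of prostanoid handling, those of synthesis that passed the test rose in MCT lungs, whereas Slco2a1 and Akr1c14, of transport and breakdown, fell. Their symbols come from a table of genes that the study selected largely on these samples, so the directions of the lists are not independent evidence. For the same reason, shares and medians over all genes tested are not a like background for these lists, here or below. Only 14 of 45 listed prostanoid and lipoxygenase genes had an identifier. Of 4 genes of prostanoid synthesis, 3 rose in Week 2 and 2 in Week 3, and none fell, with a median log2 difference of 0.70 and 0.52, against -0.0016 and 0.0073 over all genes tested. Higher calls covered 6% and 11.1% of genes in these weeks. Ptgs1, cyclooxygenase 1, rose in Week 2 (0.59) and in Week 3, when it stood at 118 ± 9.55 CPM in MCT lungs and 65.1 ± 11.9 CPM in PBS lungs (0.85, adjusted p = 0.00144, SD, n = 4 each). Tbxas1, thromboxane synthase, rose in Week 3 (0.59, adjusted p = 0.0120). The phospholipases Pla2g2a and Pla2g4a, which release the fatty acid substrate, rose in Week 2 (0.99 and 0.81), and their Week 3 values were 0.44 and 0.28.

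Besides Hpgd, which the rule fixed as lower, 3 genes of prostaglandin transport and breakdown had an identifier, and 2 of them fell in Week 2 and in Week 3, when 3.43% and 11% of all genes tested were called lower. Slco2a1, the prostaglandin transporter, fell to 492.6 ± 65.6 CPM in MCT lungs of Week 3, against 1037 ± 31.4 CPM in PBS lungs (-1.09, adjusted p = 9.13e-05, SD, n = 4 each), after a fall of 0.84 on the log2 scale in Week 2. Akr1c14, an aldo-keto reductase that acts on steroids and prostaglandins in rat, fell in Week 2 (-0.59) and stood at 43.4 ± 6.61 CPM in MCT lungs and 157.5 ± 38.7 CPM in PBS lungs in Week 3 (-1.88, adjusted p = 6.76e-05, SD, n = 4 each). Zadh2, a prostaglandin reductase, had -0.80 (-0.82 without PBS replicates 1 and 3), -0.50 and -0.10 in Weeks 1, 2 and 3 and passed in none.

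Among 3 prostanoid receptors, Ptger1 fell in Week 2 (-0.61, adjusted p = 0.00260) and had 0.55 in Week 3, below the fold threshold. Ptger4 had 0.67 and Ptger3 -0.80 in Week 3, and neither passed. Of 3 genes of the lipoxygenase pathway, Alox15, the 15-lipoxygenase, fell in Weeks 2 and 3 (-1.65 and -1.92), the leukotriene receptor Cysltr2 fell in Week 3 (-1.23), and Alox12 rose in Week 3 (0.60). Tmcc3, the one relative of Tmcc2 with an identifier, fell in Week 3 (40.9 ± 9.28 CPM in MCT and 73.8 ± 5.15 CPM in PBS lungs, -0.87, adjusted p = 0.00220, SD, n = 4 each), and had -0.68 in Week 1 (-0.63 without PBS replicates 1 and 3) and -0.43 in Week 2.

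**Figure D3:**
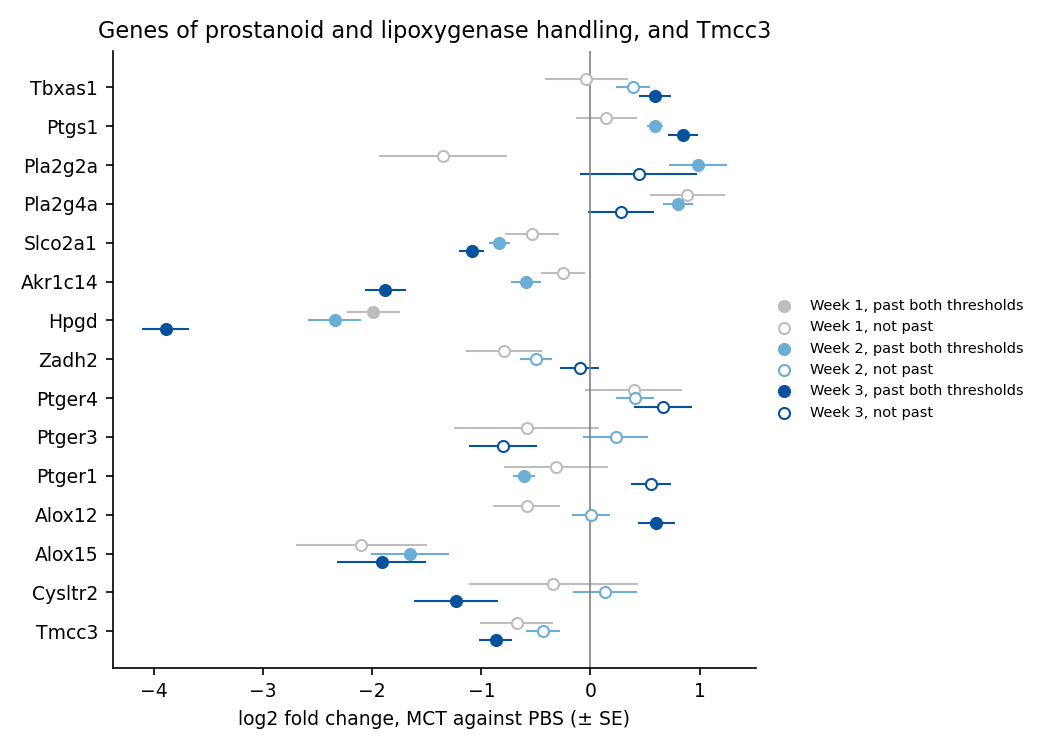
Log2 fold change of MCT against PBS (± SE) in Weeks 1 to 3 for 14 genes of prostanoid and lipoxygenase handling and for Tmcc3. Filled points passed an adjusted p of 0.05 and a 1.5-fold change. Hpgd lies farthest to the left in Week 3, at -3.89, and Ptgs1 lies to the right, at 0.85.

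Markers of several cell types moved beside the 3 genes. Here and in the next paragraph, only markers with an identifier in the study's table of genes could be followed. That table was selected largely on these samples. The counts of calls are therefore not independent evidence, and the shares of all genes are not a like background for them. Of 13 pan-endothelial markers with an identifier, out of 20 listed, 7 fell in Week 2 and 13 in Week 3, against 3.43% and 11% of all genes tested. Their median log2 difference was -0.20 in Week 1 (-0.32 without PBS replicates 1 and 3), -0.78 in Week 2 and -1.18 in Week 3. The largest Week 3 values were those of Tek, the angiopoietin receptor (-3.50), Calcrl, the adrenomedullin receptor (-3.46), and Ptprb, the vascular endothelial phosphatase (-2.20). Their summed level was 2249 to 2668 CPM in MCT and 7116 to 7783 CPM in PBS rats in Week 3, and 3917 to 4618 and 6530 to 7770 CPM in Week 2. In Week 1 it was 4894 to 6052 CPM in MCT rats and 4239 to 9974 CPM in PBS rats. Both ends of that PBS range were replicates 1 and 3, and the other PBS rats had 5309 and 7132 CPM, above 3 of the 4 MCT rats. All 4 general capillary markers with an identifier fell in Week 3 and 3 in Week 2, and 3 of 4 alveolar type 1 markers fell in Week 3. The 3 capillary aerocyte markers were mixed: Fibin rose in Weeks 2 and 3 (0.80 and 0.90), Kdr, a VEGF receptor, had -0.33 in Week 2 and fell in Week 3 (-1.16), and Apln, the ligand apelin, had 0.31 and 0.18. Kdr is also among the pan-endothelial markers. No marker in these lists was at 0 in all libraries. The part of these shifts in the levels of the 3 genes was not tested.

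Erythroid markers were followed because Tmcc2 is, in human, also expressed in red cell precursors. Of 34 listed, the 14 genes with an identifier summed to 676 to 2526 CPM in MCT rats and 4783 to 11881 CPM in PBS rats in Week 1. Their median log2 difference was -2.22. Without PBS replicates 1 and 3 that median was -1.77, the other PBS rats summed to 6907 and 5338 CPM, and 1 marker fell. In Week 2 the sums overlapped, at 481 to 1204 CPM in MCT and 881 to 2181 CPM in PBS rats. The globin genes Hbb, Hba-a2 and Hba-a1 fell in that week (-1.48, -1.25 and -1.25), against 3.43% of all genes. In Week 3 they overlapped again, at 239 to 605 CPM in MCT and 184 to 948 CPM in PBS rats, and 1 marker fell, Gypc, a red cell membrane glycoprotein (-0.80), where 11% of all genes were called lower. The log2 difference of Tmcc2 in the same weeks was -1.65, -1.77 and -1.78, and the part of erythroid RNA in it was not tested. Macrophage markers ran the other way: 6 of 8 with an identifier, out of 12 listed, rose in Weeks 2 and 3, against 6% and 11.1% of all genes. Their sum in Week 3 was 2092 to 3150 CPM in MCT and 615 to 934 CPM in PBS rats. Mast cell markers (3 of 4) and smooth muscle markers (3 of 3) also rose in Week 3, with 9 listed for each cell type. The rises were led by Cpa3, a mast cell carboxypeptidase (5.06), and Des, desmin (1.38). The 1 mast cell marker that fell was Kit, which is also among the general capillary markers.

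**Figure D4:**
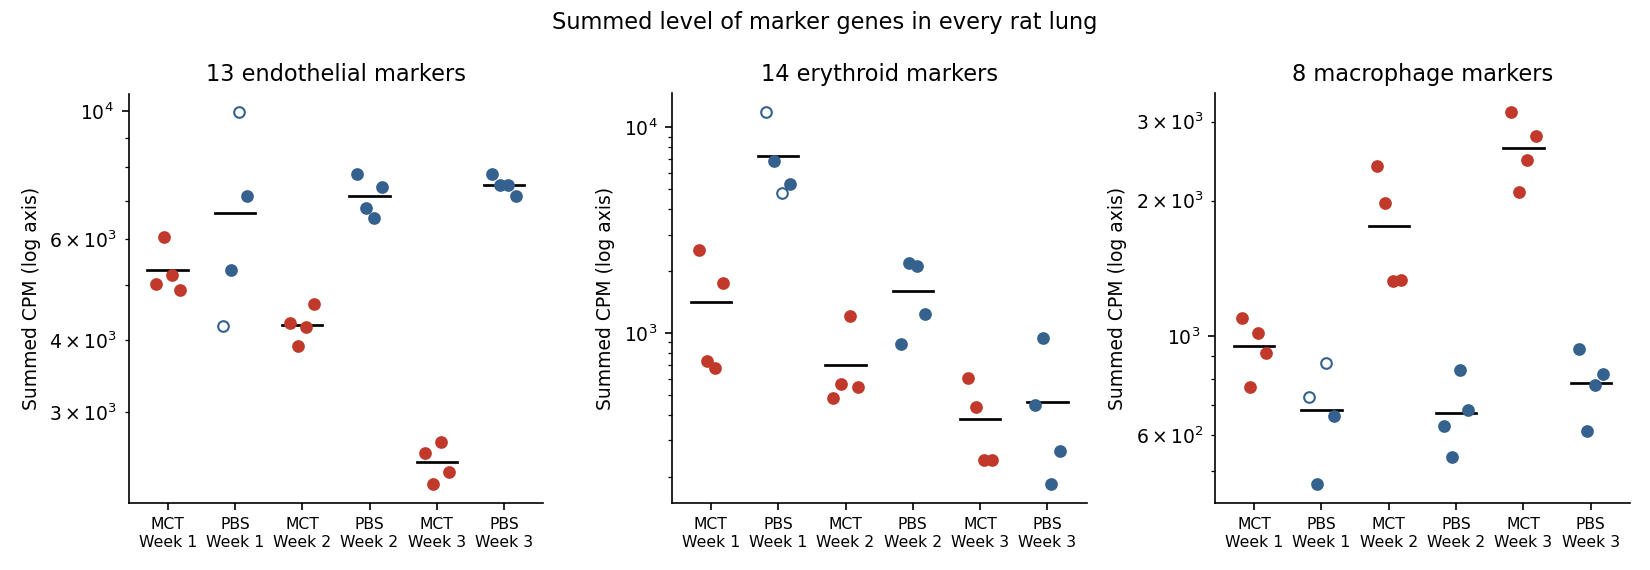
Summed CPM (log axis) of 13 endothelial, 14 erythroid and 8 macrophage marker genes in every rat, MCT in red and PBS in blue, by week. Bars are means of 4 rats and open points are PBS Week 1 replicates 1 and 3. Endothelial sums separate in Weeks 2 and 3, and erythroid sums separate in Week 1 and overlap in Weeks 2 and 3.

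Across the 22 libraries other than PBS Week 1 replicates 1 and 3, the genes whose log2 CPM ran most like each of the 3 were sought among 17206 genes. These points share treatment, week and library, so the coefficients are descriptions. Hpgd ran most like Plekha2 (Pearson r = 0.9753), Fam117b (0.974), Pogk (0.963), Efnb2 (0.960), which encodes the arterial endothelial ligand ephrin-B2, and Tek (0.960). The nearest to Tmcc2 were Ttyh3 (0.97495), Smad6 (0.971), an inhibitor of BMP signalling, Tmem100 (0.966), Tp53i11 (0.963) and the prostaglandin transporter Slco2a1 (0.957). For ENSRNOG00000047457 they were Rasgef1a (0.971), Ackr4 (0.965), an atypical chemokine receptor, Tle1 (0.958), Gimap6 (0.957) and Adgrf5 (0.957), an adhesion receptor of lung endothelium. The 3 genes themselves correlated at 0.888 to 0.910.

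After the group means were subtracted, the correlations among the 3 genes were 0.08 for Hpgd and Tmcc2, -0.15 for Hpgd and ENSRNOG00000047457 and 0.07 for Tmcc2 and ENSRNOG00000047457, over the same 22 libraries. Within groups, then, the 3 genes showed little common movement from rat to rat. Hpgd then ran most like ENSRNOG00000025997 (0.855), ENSRNOG00000017956 (0.840) and Akr1c14 (0.821). The MCT rats of Week 2 with the lower Hpgd levels were also the lower ones for Akr1c14. The same rats were lower for Tmcc2 and for the summed alveolar type 1 markers, and higher for the summed macrophage markers. The split was thus not particular to Hpgd and Akr1c14. Tmcc2 ran most like Dynll2 (0.803), ENSRNOG00000060597 (0.792) and Mettl7a (0.791), and ENSRNOG00000047457 most like ENSRNOG00000028852 (0.814, a gene with a mean of 0.196 CPM), ENSRNOG00000012952 (0.814) and Irag2 (0.794).

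**Figure D5:**
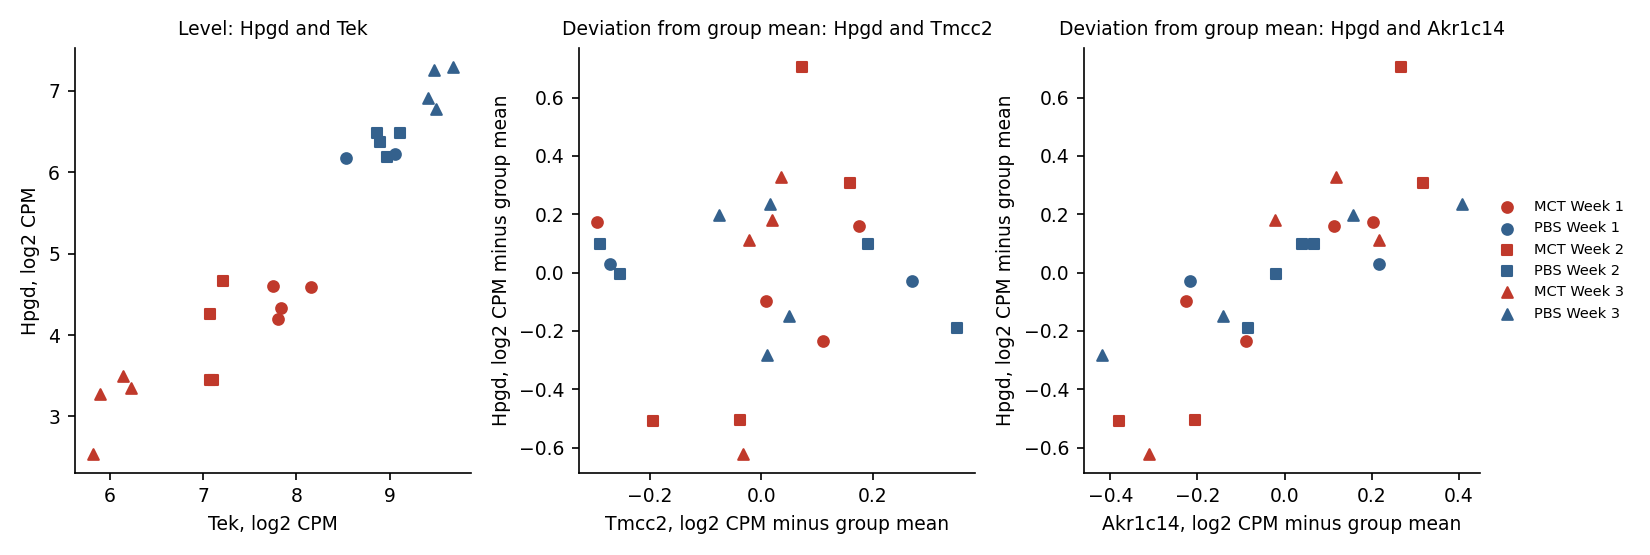
Log2 CPM of Hpgd against Tek (left), and deviations from the group mean of Hpgd against Tmcc2 (middle) and against Akr1c14 (right), for 22 libraries. Colours give treatment and symbols the week. The correlations are 0.960, 0.08 and 0.821.

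Of the 3 rows on each side of each gene, several had too few counts to be tested, most of them beside Hpgd and ENSRNOG00000047457. None of the tested rows was called in more than 1 week. The row nearest to Hpgd, 4259 bases away, is a single-exon row named Hmgb1, a gene with many near-identical copies, so its reads are uncertain. It had 0.30 and -0.14 in Weeks 1 and 2 and fell in Week 3 (-0.91, adjusted p = 0.00109). Of the genes on either side of Tmcc2, Nuak2, a kinase gene 23617 bases away, rose in Week 3 (0.67, adjusted p = 0.00778), and ENSRNOG00000000036 fell in Week 2 (-2.11, adjusted p = 0.00261) at 0.814 CPM in MCT and 3.53 CPM in PBS lungs. The tested neighbours of ENSRNOG00000047457, ENSRNOG00000047873 and ENSRNOG00000047853, passed in no week.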

How the data were processed

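Lung RNA of 24 rats was sequenced with a directional poly-A kit, 1 rat per library. The authors aligned reads with HISAT2 2.0.5 and counted them with featureCounts 2.0.3. The table the authors deposited holds raw counts, not normalized, of 32883 genes with Rnor_6.0 coordinates. The strand setting and the treatment of reads with several alignments are not given in the sources used here. The authors tested with DESeq2 1.32.0.

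Groups came from the sample labels. Each week's 8 libraries were fitted in edgeR 4.0.16 (R 4.3.3) with filterByExpr, TMM and the quasi-likelihood test, adjusted by Benjamini-Hochberg over all genes tested. A call needs an adjusted p under 0.05 and a fold over 1.5, except for changes between weeks of the MCT and PBS difference, fitted on 24 libraries, which need the adjusted p alone. Comparisons of weeks within a treatment used the 8 libraries concerned. The SE is the estimate divided by the root of its F statistic, and intervals of 95% use it with the residual degrees of freedom. Correlations used log2 CPM with a prior count of 2. The method was tested on simulated data.

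The members and gene lists were chosen with earlier results of these data known. Named genes were the 3 genes, the listed prostaglandin, lipoxygenase and TMCC genes with a symbol, up to 3 called genes of other lists, the 5 and 3 most similar genes, 3 rows on each side, and the 3 genes nearest the threshold. Symbols came from a supplementary table of the paper, shortened in the copy read, with 3275 identifiers. Promoters came from RefSeq (GRCr8), matched by gene identifier.

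Of 36 pairs of libraries within groups, none agreed within sampling noise (lowest chi-square per degree of freedom 22.5). Depth was 19804731 to 32835200 counts. Alternatives were RLE size factors, no filter, DESeq2 1.42.0, a joint fit, a replicate block, and leaving out libraries.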

Additional observations from a re-analysis of the deposited data

Results flagged for a closer look

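Hpgd in PBS Week 1 had 1 rat far from the others. Replicate 1 stood at 119 CPM against 78.9 CPM in the next rat, a gap of 0.856 of the range of the group. It is one of the libraries with few counts, and its value without TMM scaling was 97.6 CPM. Of 18 groups of 4 rats examined this was the one past the limit, and chance gives about 1 in 20. Without PBS replicates 1 and 3 the Week 1 difference of Hpgd was -1.76.

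The difference of Hpgd between MCT and PBS rats was not the same in Weeks 3 and 1. The change was -1.88 on the log2 scale (adjusted p = 0.00441, edgeR, 24 libraries).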

How the results depend on the processing

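All 9 log2 differences between MCT and PBS kept their sign under all alternatives tried, and the 3 genes passed in Weeks 2 and 3 under each. In Week 1 the count of genes passing was 3, and 0 to 3 when single replicates were left out. Leaving out single replicates was added to the counts after seeing the data, as were the replicate block and the fit of 24 libraries. Genes lower in Week 1 numbered 3 in the main analysis, 84 without PBS replicates 1 and 3, 94 with DESeq2, 181 in 1 fit of 24 libraries and 0 to 34 without single replicates. The fit of 24 libraries gave 138 in Week 2 and 918 in Week 3, against 553 and 1775. The cause was not tested.

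Replicate numbers did not pair the samples: correlations of same-numbered MCT and PBS rats ran from -0.12 to 0.27, with 2 of 12 above 0.1. With the replicate number as a block in edgeR no gene was called lower in Week 1, and so 0 of the 3 genes. With this block the Week 3 against Week 2 values were 0.68 for Hpgd in PBS rats (adjusted p = 0.0601) and -0.75 for ENSRNOG00000047457 in MCT rats (adjusted p = 0.0507). The Tmcc2 change between Weeks 3 and 2 was then -0.0063.

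For Hpgd, the change between Weeks 3 and 2 passed with DESeq2 (-1.49, adjusted p = 0.0122) and without PBS Week 1 replicates 1 and 3 (-1.53) or replicate 3 alone (-1.54, adjusted p = 0.0303), with -1.70 to -1.26 over single omissions, and Week 3 against Week 2 in MCT rats passed with DESeq2 (-0.84, adjusted p = 0.0402). In PBS rats, Week 3 against Week 2 was 0.69 in 1 fit of 24 libraries and 0.60 to 0.78 over single omissions. Week 2 against Week 1 in PBS rats, 0.02, was -0.048 in 1 fit, -0.0934 with DESeq2, -0.0939 with RLE size factors and -0.11 to 0.18 over single omissions. Tmcc2 in PBS rats, Week 3 against Week 1, passed in 1 fit (-0.74, adjusted p = 0.0191). Its changes between weeks lay at -0.25 to 0.0026 (Weeks 2 and 1) and -0.12 to 0.094 (Weeks 3 and 2) over single omissions. For ENSRNOG00000047457 the change between Weeks 2 and 1 was 0.028 without PBS Week 1 replicates 1 and 3 and -0.28 to 0.23 over single omissions. In MCT rats, its Week 3 against Week 2 value was -0.75 in 1 fit and -0.84 to -0.65 over single omissions, Week 2 against Week 1 0.39 to 0.87, and Week 3 against Week 1 -0.36 to 0.12.

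With all 24 libraries the most similar genes were Fmo1 for Hpgd, Tmem100 for Tmcc2 and Ackr4 for ENSRNOG00000047457. Without PBS replicates 1 and 3, Week 1 calls of markers were 1 lower endothelial, 2 lower general capillary, 1 lower erythroid and 1 lower mast cell gene. The mast cell gene is Kit, which is also 1 of the 2 general capillary genes.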
